A study of Mus with 5 samples.

Results

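The metabolism genes of activated T cells described here are 39 named genes for glucose uptake, glycolysis, lactate transport, amino acid transport, mitochondrial metabolism, lipid synthesis and mTOR signalling. They are 39 of the 21896 protein-coding genes of the RefSeq gene table. A peak was taken as a member peak when the gene names that the authors attached to it held 1 of these 39. This gave 175 of the 27480 peaks in 4 lists: 6 of 1172 RARα peaks and 96 of 15812 BATF peaks in control cells, and 1 of 597 RARα peaks and 72 of 9899 BATF peaks with retinoic acid (RA). No peak named more than 1 member.

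The lists come from ChIP-seq of RARα, the nuclear receptor that binds RA, and BATF, a transcription factor of the AP-1 family, in wild-type mouse CD8 T cells from spleen. Before fixation the cells had 24 h of stimulation (antibodies to CD3 and CD28, plus IL-2) and a rest of 24 h in IL-2 alone (100 U/ml). RA at 50 nM was then added for 1 h, or left out in the control. The labels call the cells naive CD8 T cells although the protocol activates them, name an interleukin that differs from sample to sample in the treatment field, and do not state whether the IgG sample received RA. The study's methods give the same dose as the labels, and the legend of a supplementary figure a lower one.

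For each antibody and condition there is 1 peak list, called on 2 pooled files against 1 IgG file that all 4 lists share, and the sources do not state whether the 2 files are biological replicates. There is therefore no replicate spread and no test between control and RA. Values are given side by side, and the intervals cover counting error within the pools only. The pools held 22655611 (RARα control), 22475060 (RARα RA), 23110180 (BATF control) and 16424269 (BATF RA) fragments after filtering, so the BATF RA pool had 71.1% of the depth of its control and the RARα RA pool 99.2%. The RARα lists were cut at a p of 0.001 and the BATF lists at 1e-05, so numbers of peaks are not compared between the antibodies. All 5 T cell genes checked (Cd3e, Cd3d, Cd8a, Cd8b1 and Lck) had a BATF promoter peak in control, and none of 4 B cell or 4 myeloid genes did, although all 4 B cell genes had a BATF peak elsewhere. Peaks do not measure expression.

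A resting T cell burns little fuel. After antigen receptor and CD28 signals it takes up glucose and amino acids, turns much of the glucose into lactate and builds lipids for new membranes. The kinase mTOR and the transcription factors Myc and HIF-1α drive much of this programme. BATF, with partners of the Jun and IRF families, is known to bind many genes of activated T cells and to support effector metabolism, and RARα binds as a dimer with a retinoid X receptor.

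BATF peaks named most of these genes in both conditions. In control, 37 of the 39 genes had a BATF peak, or 94.9% (95% Wilson interval 83.1 to 98.6), beside 48.6% of all genes. With RA, 35 of 39 did, or 89.7% (76.4 to 95.9), beside 38.2% of all genes. The background counts all protein-coding genes whatever their expression, which these files do not measure. A BATF peak that the authors classed as promoter was present at 35 genes in control (background 37.9%) and at 29 with RA (background 27.7%). RARα peaks named 5 genes in control (background 7.18%) and 1 gene with RA (background 3.19%), and 33 genes had none in either list. They were at a promoter for 1 gene in control (background 1.04%) and for none with RA (background 0.219%). All 5 genes with a RARα control peak also had a BATF control peak, as did 82.4% of all genes with one.

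BATF peaks were present in both lists at 34 genes. Pgk1, Slc16a3 and Srebf1 had a BATF peak in control only, which is 3 of the 37 genes with a control peak, or 8.11%, where the share over all genes was 23.5%. Pfkl had 1 with RA only, and Deptor, an inhibitor of mTOR, had no BATF peak at all. The number of BATF peaks was larger in control at 18 genes, larger with RA at 6 and equal at 14. The same split was not counted over all genes, and the whole lists held 15812 BATF peaks in control and 9899 with RA. The highest number naming 1 gene was 8 in control and 5 with RA, both for Pfkfb3, and 11 genes had 1 control peak each. The peaks naming Pfkfb3 include intergenic ones far from it, 62496 to 81471 bp away in control and 62593 to 81627 bp with RA. For these, Rbm17 or Il2ra was the nearest gene.

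**Figure D1:**
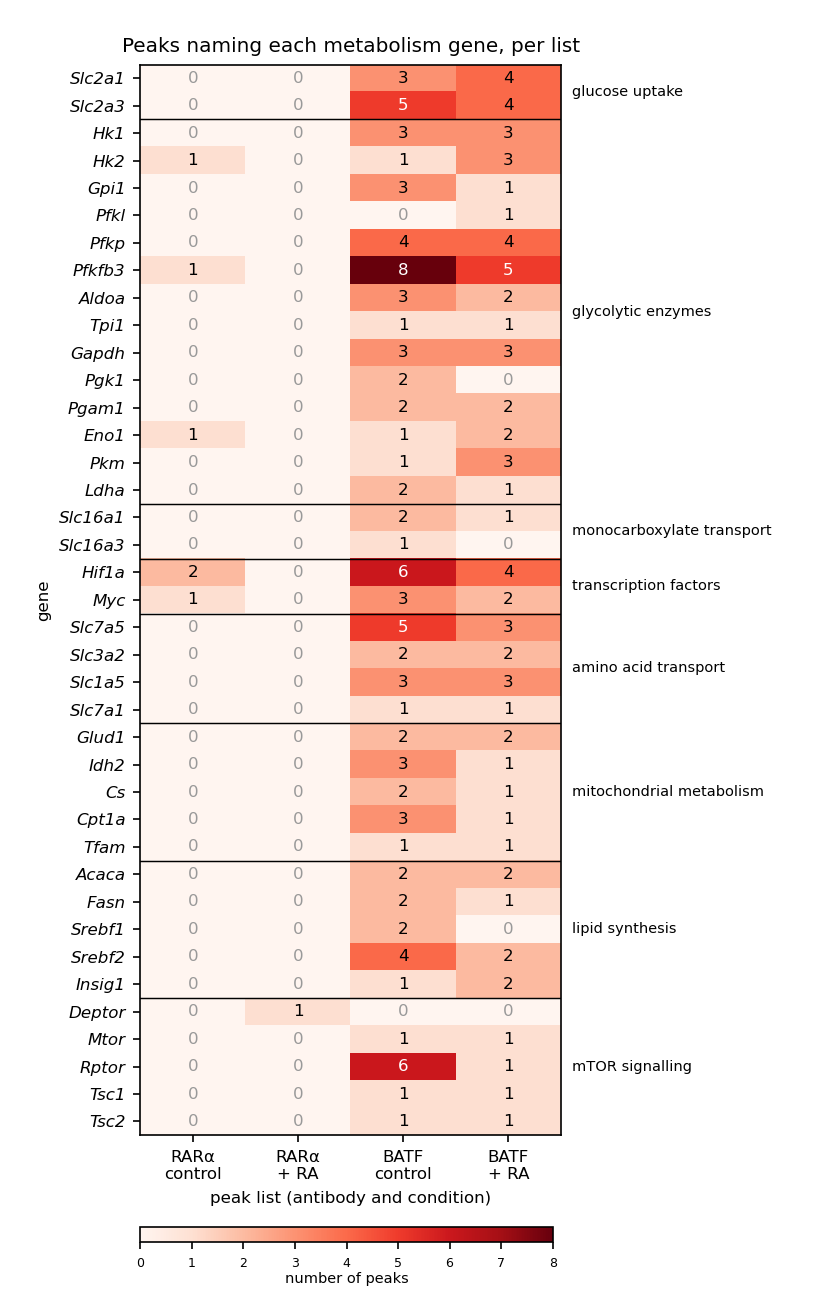
Number of peaks naming each of the 39 metabolism genes (rows, by functional group) in each of the 4 peak lists (columns), with the number printed in each cell and darker red for more peaks. The BATF columns are filled for 37 and 35 genes, and the RARα columns for 5 and 1.

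Member peaks were much like the other peaks of their lists in strength. The fold enrichment over IgG, which the peak caller gives at the summit, had a median of 5.70 over the 96 member BATF control peaks and 5.40 over all, and of 5.13 over the 72 RA peaks and 5.29 over all. The median number of fragments at the summit was 31 at member and at all control peaks, and 21 against 22 with RA. Member peaks were longer, with a median of 730 bp against 609 bp in control and 549 bp against 460 bp with RA. They were classed as promoter in 50 of 96 cases in control (52.1%, interval 42.2 to 61.8; all peaks 58.7%) and in 41 of 72 with RA (56.9%, 45.4 to 67.7; all peaks 64.6%).

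Not every member peak lies at the gene it names, because the annotation gives an intergenic peak the names of several neighbours. In control, 80 of the 96 BATF peaks lay within 10 kb of the member and 78 had it as the nearest gene, as did 62 and 61 of the 72 with RA. The farthest was 99848 bp away, a peak that names Slc1a5 among 6 genes. Where such a peak is described singly below, its distance is given. The counts per gene and group also include others that are not described. Among these are control peaks 73816 bp from Gapdh, 82432 bp from Gpi1, 61031 bp from Idh2 and 82933 bp from Aldoa.

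Glucose uptake is carried by Slc2a1 and Slc2a3, the main glucose transporters of T cells. BATF peaks named both genes in both conditions, with 8 peaks in each list. Slc2a1 had peaks at its promoter (chr4:119108694-119109479, mm10 as for all positions, 45 fragments and fold 5.54 in control, 22 fragments and fold 3.08 with RA) and in an intron. The intron site, chr4:119125902-119127692, was its strongest in control with a fold of 9.14, and with RA 2 shorter peaks lay under it with folds of 4.63 and 6.002, which takes the gene from 3 to 4 peaks. Slc2a3 was named by 5 control peaks and 4 RA peaks, none of them classed as promoter. All were classed as intergenic and named 5 or 6 genes each, Foxj2 and Nanog among them. Its strongest control peak, chr6:122764353-122765132, had 31 fragments and a fold of 7.68 in control and 26 fragments and a fold of 8.53 with RA.

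The 14 glycolytic enzyme genes had 34 BATF peaks in control and 31 with RA, at 13 genes in each list, and the median fold was 6.39 and 5.16. Pfkfb3, whose enzyme makes the activator of phosphofructokinase, was named by the most, distant peaks included. The strongest BATF peak of the whole gene set names Pfkfb3, but it lies 62496 bp from it. At chr2:11616567-11617501 it had 139 fragments and a fold of 27.2 in control, and at chr2:11616664-11617415 it had 101 fragments and a fold of 26.3 with RA. It ranked 102 of 15812 in control and 76 of 9899 with RA. Its other names are Il2ra, Il15ra and Rbm17, of which Rbm17 was nearest, so it cannot be counted as a Pfkfb3 element on position alone. At the gene itself, the peaks classed as promoter were at chr2:11501326-11502450 (fold 7.90 in control, 6.002 with RA) and chr2:11552831-11554215 (5.64 and 5.72).

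The hexokinases trap glucose in the cell by phosphorylation. Hk1 had 3 BATF peaks in each list, the strongest in control in an intron at chr10:62326119-62326451 with a fold of 5.12, and 4.63 with RA. At a promoter site of Hk1, chr10:62340128-62340591, the fold went the other way, and this site was its strongest with RA. It had 37 fragments and a fold of 3.75 in control and 33 fragments and a fold of 6.38 with RA. The local IgG level there was 3.15 times the background in control and 2.14 times with RA. The depth-scaled ratio of RA to control was 1.25 (0.761 to 2.06), an interval that includes 1. Hk2, the inducible form, had 1 broad promoter peak in control, chr6:82772568-82775371, with 55 fragments and a fold of 9.22. With RA 2 shorter peaks lay under it, chr6:82773269-82774165 and chr6:82774483-82774864, with 22 and 23 fragments and folds of 4.32 and 4.51.

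Further down the pathway most enzymes had a promoter peak in both lists that was lower with RA. Aldoa, for aldolase, had the strongest promoter peak of the set in control, chr7:126797744-126800003, with 53 fragments and a fold of 12.2, against 25 fragments and a fold of 6.70 with RA. The Gapdh promoter, chr6:125164652-125166377, had a fold of 11.0 in control and 7.72 with RA. Pfkp, for a phosphofructokinase subunit, had a fold of 10.7 at chr13:6646891-6649610 in control and, under it with RA, 2 peaks with folds of 7.80 and 7.33. For Ldha, whose enzyme makes lactate from pyruvate, the promoter folds were 9.88 and 7.68, for Pgam1 6.45 and 5.16, and for Tpi1 6.72 and 4.57.

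Gpi1, for glucose-6-phosphate isomerase, went from 3 peaks to 1. Its strongest, chr7:34233831-34234860, lies 3495 bp from the gene with Garre1 as the nearest gene, and had a fold of 11.4 in control and 6.29 with RA. Its promoter peak in control, with 33 fragments, was not called with RA. Pgk1, for phosphoglycerate kinase, had 2 promoter peaks in control, chrX:106187796-106188548 with 25 fragments and a fold of 6.65 and chrX:106187077-106187394 with 23 fragments and a fold of 3.39, and none with RA. Pfkl, for the liver type of phosphofructokinase, was named only by an RA peak 76826 bp away, chr10:78086633-78086886, with 18 fragments and a fold of 6.28.

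A larger number of peaks with RA went with a control peak that was overlapped by several shorter ones. At the promoter of Eno1, for enolase, 1 control peak (chr4:150236894-150240193, fold 10.6) met 2 RA peaks with folds of 4.80 and 6.06, all of which also name Eno1b. At Pkm, for pyruvate kinase, 1 control peak 4025 bp long (chr9:59655989-59660013, fold 6.46) met 3 RA peaks with folds of 4.15, 6.48 and 5.00. At Insig1 1 peak (chr5:28070879-28072416, fold 11.8) met 2 with folds of 4.00 and 6.48. The weaker of these, chr5:28070529-28070918, overlapped only the edge of the control peak and lay mostly outside it. At the Hk2 promoter and the Slc2a1 intron 1 control peak also met 2 RA peaks. Among the 6 genes with more peaks in the RA list, the RA peaks that overlapped no control peak were the intron peak of Hk2 and the distal peak of Pfkl, which had no BATF control peak within 5 kb.

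Lactate leaves or enters the cell through the monocarboxylate transporters. The Slc16a1 promoter had a peak in both lists, with a fold of 8.18 in control and 4.35 with RA. Slc16a3 had 1 weak promoter peak in control, chr11:120948732-120949358, with 22 fragments and a fold of 3.25, and none with RA. At the depth of the RA pool the same density would give 15.6 fragments, where 16 were needed for a call. An unchanged peak would therefore not have been called there.

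Hif1a and Myc encode transcription factors that turn on glycolytic genes. Hif1a had 6 BATF peaks in control and 4 with RA. The strongest lay 12822 bp from the gene, chr12:73887854-73888502, with 100 fragments and a fold of 19.95 in control and 74 fragments and a fold of 19.3 with RA. A site 58386 bp away, chr12:73842079-73842938, had 104 fragments and a fold of 11.5 in control and 63 fragments and a fold of 8.56 with RA, and there the local IgG level was 2.80 times the genome background. At chr12:73904390-73905182 the fold was higher with RA, 10.9 in control and 16.2 with RA, with 47 and 53 fragments. This site lies within the RefSeq extent of Hif1a, but the authors classed it as intergenic and also named Snapc1 and Syt16. At the promoter, chr12:73907148-73908894, the fold was lower with RA, with 53 and 17 fragments and folds of 7.62 and 3.38.

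Myc had 3 BATF peaks in control and 2 with RA. The peak over its start, chr15:61984931-61988268, had 38 fragments and a fold of 2.57 in control. With RA 2 peaks lay under it, chr15:61985183-61985861 with 28 fragments and a fold of 2.62 and chr15:61986411-61987468 with 19 fragments and a fold of 5.11. The local IgG level was 4.89 times the background at the control peak, and 4.97 and 1.44 times at the RA peaks. Its highest fold in control was 4.68, at chr15:61983094-61983485, where the nearest RA peak was 1698 bp away.

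**Figure D2:**
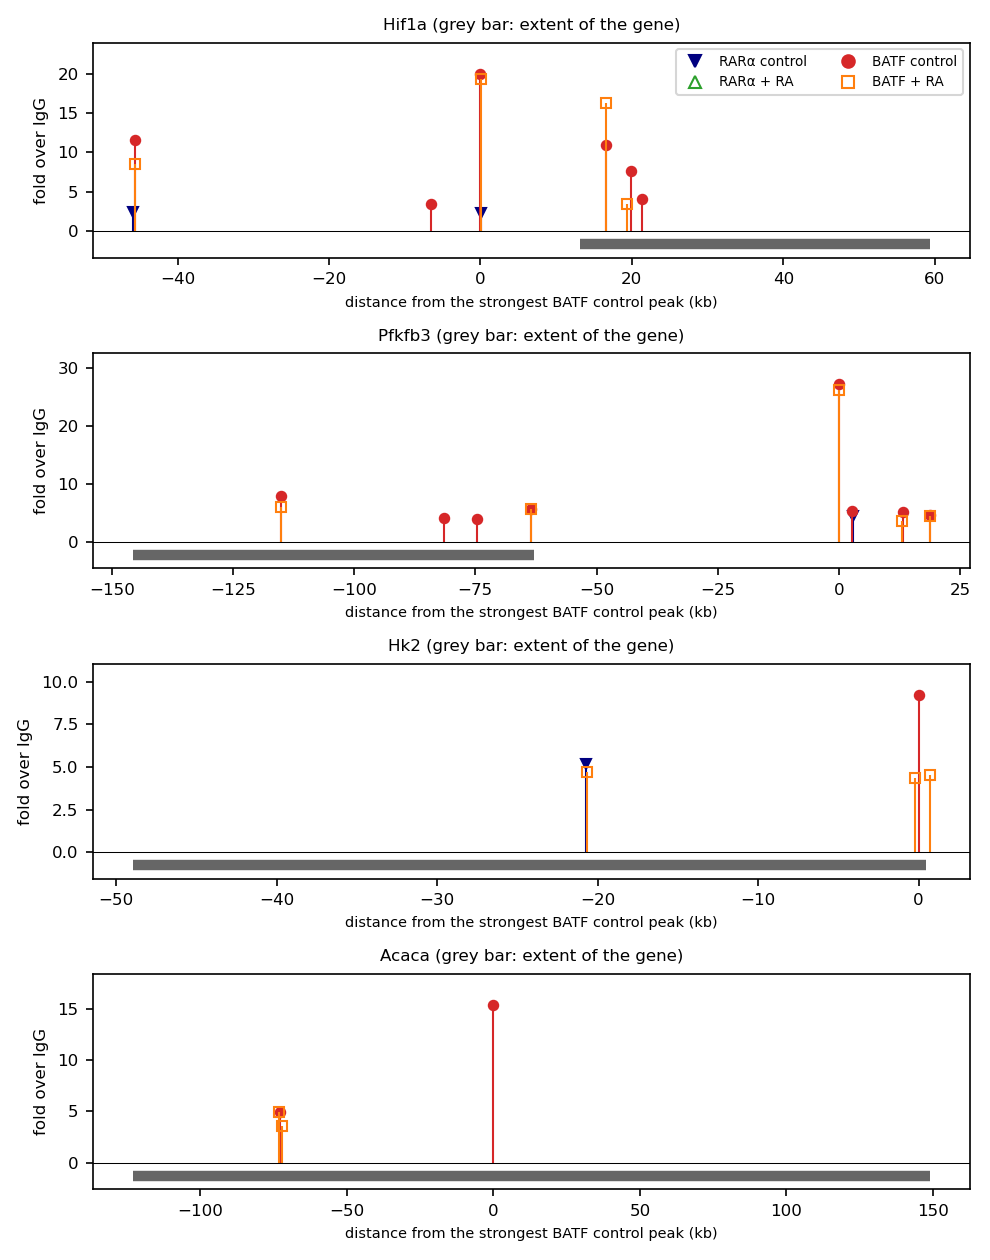
Peaks naming Hif1a, Pfkfb3, Hk2 and Acaca, by distance from the strongest BATF control peak of each gene (kb, horizontal) and fold enrichment over IgG (vertical), with 1 symbol per list and a grey bar for the extent of the gene. The strongest sites of Hif1a and Pfkfb3 have nearly equal BATF folds in both conditions (19.95 and 19.3, 27.2 and 26.3), while the intron site of Acaca at a fold of 15.4 has no RA peak, and no RARα RA peak names any of the 4 genes.

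Amino acid transporters had 11 BATF peaks in control and 9 with RA, and all 4 genes kept a promoter peak. Slc7a5 and Slc3a2 form the carrier of large neutral amino acids. The Slc7a5 promoter, chr8:121905533-121908983, had a fold of 11.1 with 67 fragments in control and a fold of 11.3 with 46 fragments with RA. The 2 Slc3a2 promoter peaks had folds of 8.37 and 8.97 in control and 6.09 and 7.39 with RA. Slc1a5, a carrier of glutamine, had a promoter fold of 9.55 in control (chr7:16780979-16783901) and 2 RA peaks under it with folds of 5.22 and 4.01. Slc7a1, a carrier of arginine, had 1 promoter peak, chr5:148398730-148400200, with a fold of 10.04 and 60 fragments in control and 5.27 and 27 fragments with RA.

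The 5 mitochondrial genes had 11 BATF peaks in control and 6 with RA, and each kept a promoter peak. Cpt1a, which governs the entry of fatty acids into mitochondria, had 3 promoter peaks in a row in control, with folds of 6.52, 7.98 and 8.73, and 1 with RA (chr19:3324452-3325575 in control, fold 4.25 with RA). The promoter of Cs, for citrate synthase, had folds of 9.42 and 6.69. Tfam, for a factor that packages mitochondrial DNA and is needed for its transcription, had 5.98 and 3.95. Idh2, for a mitochondrial isocitrate dehydrogenase, went from 3 peaks to 1, and its promoter peak had folds of 3.18 and 4.78, with 28 and 21 fragments. At that promoter the depth-scaled ratio of RA to control was 1.06 (0.570 to 1.93). The local IgG level there was 2.80 times the background in control and 1.78 times with RA. The highest fold of Idh2 in control, 4.61, was at chr7:80123274-80123557, which was not called with RA. Glud1, for glutamate dehydrogenase, had 2 peaks in each list, with a highest fold of 4.74 in control and 4.86 with RA.

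The 5 lipid synthesis genes had 11 BATF peaks in control and 7 with RA, among them 2 strong intron sites, of which 1 was in both lists and 1 in control only. Srebf2 encodes the transcription factor that turns on cholesterol synthesis, and its intron site, chr15:82163446-82164350, had 95 fragments and a fold of 18.7 in control and 68 fragments and a fold of 17.8 with RA. Both of its promoter peaks, with 30 and 25 fragments in control, were not called with RA. Acaca encodes acetyl-CoA carboxylase, which makes the building block of fatty acids. Its intron site, chr11:84252471-84252828, had 63 fragments and a fold of 15.4 in control and no RA peak nearer than 71838 bp. At the depth of the RA pool the same density would give 44.8 fragments, where 11 were needed for a call. Of the 587 BATF control peaks with a fold of at least 15, 2 (0.341%) had no RA peak within 5 kb, and this is 1 of them. That threshold was chosen after the values were seen, and whether the difference is between conditions or between the pooled files was not tested.

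Srebf1, the related factor for fatty acid synthesis, had a promoter peak (chr11:60219531-60220991, 37 fragments, fold 5.76) and an intron peak (chr11:60209614-60210854, 72 fragments, fold 5.15) in control and neither with RA. At the intron peak the local IgG level was 4.54 times the background, and 51.2 fragments would be expected at the RA depth where 25 were needed. Fasn, for fatty acid synthase, kept its promoter peak, with folds of 8.23 and 6.22. Insig1, which holds the SREBP factors back in the endoplasmic reticulum, kept its promoter as given above.

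The 5 mTOR genes had 9 BATF peaks in control and 4 with RA, with median folds of 4.61 and 5.17. Mtor, the kinase itself, had 1 promoter peak with folds of 3.55 and 4.502. The promoters of Tsc1 and Tsc2, whose proteins together restrain mTOR, had folds of 4.17 and 5.08, and 9.38 and 6.01, the latter at a promoter shared with Nthl1. Rptor, for the scaffold Raptor, had 6 peaks in control and 1 with RA. Its 5 peaks with no RA peak within 5 kb included the promoter (30 fragments, fold 3.40) and an intron site at chr11:119676793-119677371 (25 fragments, fold 6.65). The peak in both lists, chr11:119928115-119928575, lay 28524 bp from the gene, with folds of 4.80 and 5.27.

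Across the set, 69 of the 96 BATF control peaks had a BATF RA peak within 5 kb, or 71.9% (62.2 to 79.9), close to the 69.9% of all control peaks. In the other direction 69 of 72 RA peaks had a control peak within 5 kb, or 95.8%, beside 96.3% of all. The 27 control peaks without an RA peak were weaker, with a median fold of 4.42 against 6.72 for those with one, as they were over all peaks (4.55 against 6.04). When the control values were scaled to the RA depth, 91 of 96 would still have passed the p of the list, or 94.8%, beside 93.6% of all peaks, and so would 24 of the 27, or 88.9%, beside 88.1%. The scaling takes account of depth, not of counting noise. The 3 RA peaks without a control peak were the distal peak of Pfkl and introns of Hk2 and Glud1, the last with 12 fragments and a control peak 5086 bp away.

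At 56 sites a control peak overlapped an RA peak (58.3% of the control peaks, beside 54.4% of all), and at these the fragments at the summit, divided by the depth of the pool, were compared, taking the RA peak with most fragments where there were several. The median ratio of RA to control was 0.844 over the 56 member sites and 0.844 over all 8605 such sites. The fold was lower with RA at 42 of 56, or 75%, beside 75.2% of all. Over the 69 pairs within 5 kb it was lower at 48, or 69.6% (57.9 to 79.2), beside 66.8% of all pairs. The peak caller adds 1 to the pileup and to the IgG level before it divides them, and without this constant the ratio was lower with RA at 42 of the 69 pairs, or 60.9%, beside 59.7% of all. The strong sites named for Pfkfb3, Hif1a and Srebf2 were then slightly higher with RA, at 33.7 and 35.1, 24.7 and 25.7, and 23.01 and 23.6. At promoters the median ratio was 0.780 (33 sites; all promoters 0.810), and elsewhere 0.938 (23 sites; all others 0.910). Among sites with at least 50 control fragments, it was 0.745 at 12 member promoters and 0.938 at 7 other member sites, and 0.734 and 0.892 over all such sites. The medians of the metabolism genes thus lay close to those of the whole list, with the lower values at promoters in both.

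**Figure D3:**
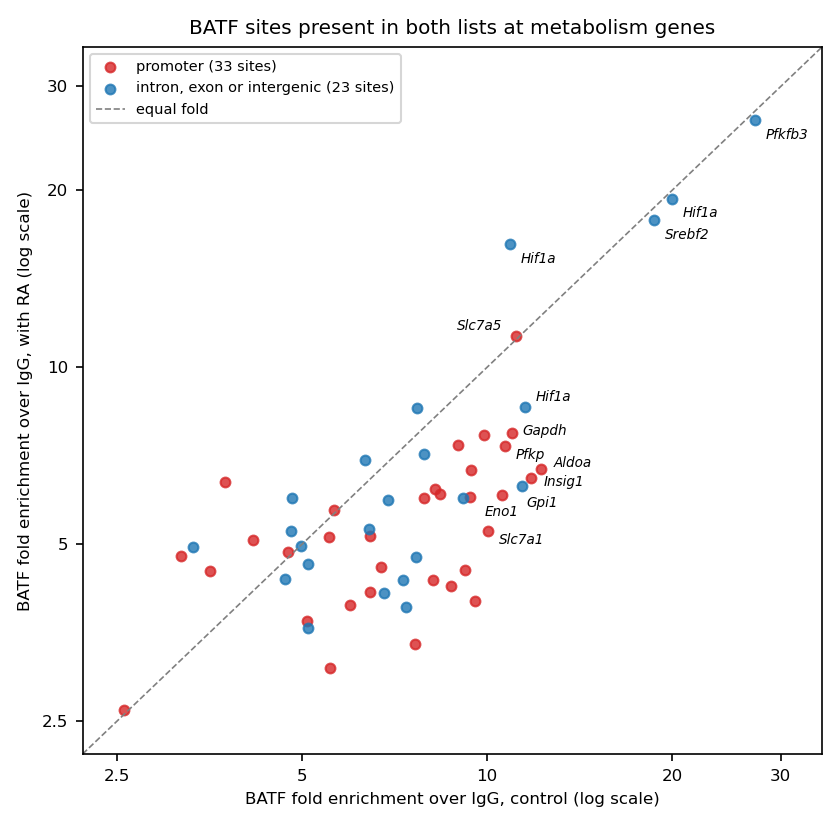
BATF fold enrichment over IgG in control (horizontal, log scale) and with RA (vertical, log scale) at the 56 sites with overlapping peaks, promoters in red and other sites in blue, with the dashed line at equal fold. The fold is lower with RA at 42 sites, and the strongest sites near the line are the non-promoter sites named for Pfkfb3, Hif1a and Srebf2. These folds include the constant that the peak caller adds. Without it 60.9% of the 69 pairs within 5 kb are lower with RA, against 69.6% with it.

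The counting interval of the ratio lay below 1 at 4 of the 56 sites, or 7.14%, beside 7.36% of all. They were the promoters of Hif1a (0.451, 95% interval 0.245 to 0.792), Cpt1a (0.489, 0.259 to 0.881) and Hk2 (0.588, 0.345 to 0.973) and the site next to Gpi1 (0.568, 0.325 to 0.960). It lay above 1 at 1 site, the one classed as intergenic within the RefSeq extent of Hif1a (1.59, 1.05 to 2.40), where 0.325% of all sites did so. The strongest sites had ratios near 1: 1.02 (0.783 to 1.33) for the site named for Pfkfb3, 1.04 (0.760 to 1.42) upstream of Hif1a and 1.01 (0.727 to 1.39) in Srebf2. The Slc7a5 promoter was at 0.966 (0.649 to 1.43). At most promoters, such as those of Aldoa (0.664, 0.395 to 1.09) and Slc7a1 (0.633, 0.386 to 1.01), a lower ratio could not be told from 1 at this depth.

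**Figure D4:**
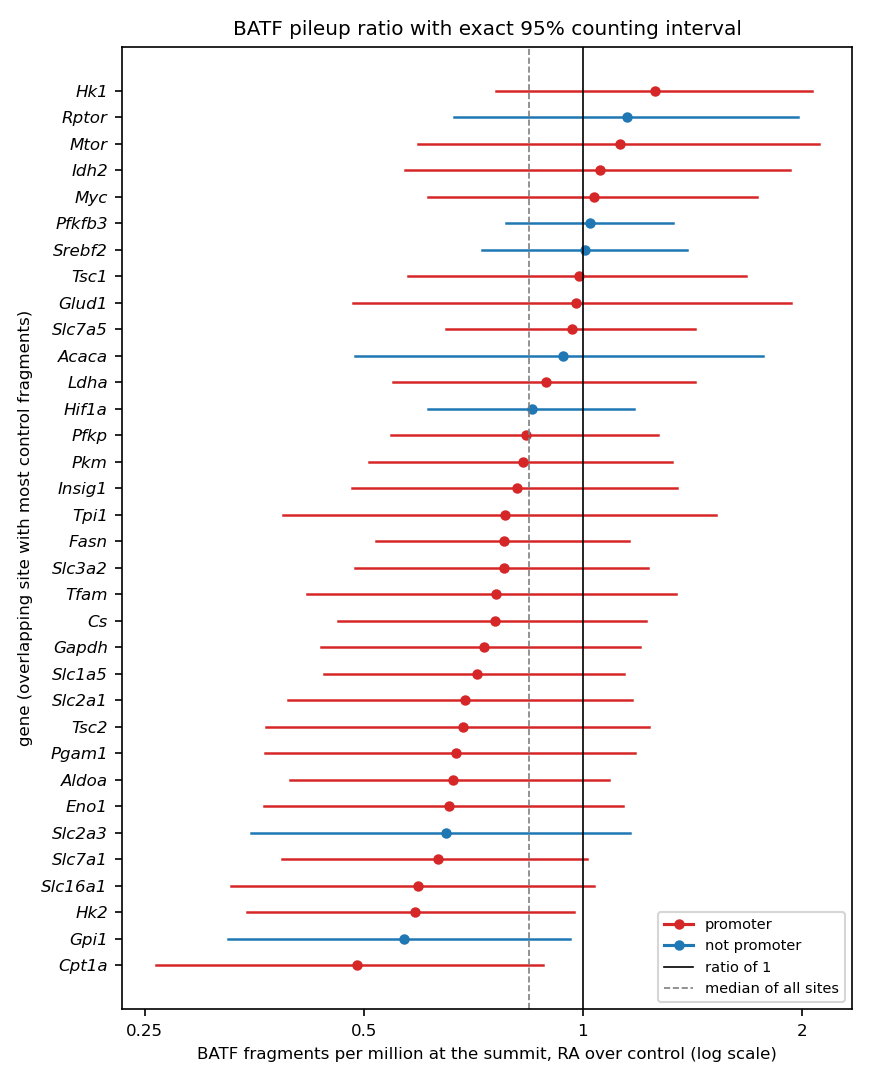
Ratio of BATF fragments at the summit, each divided by the depth of its pool, RA over control (horizontal, log scale), at the overlapping site with most control fragments of each of 34 genes, with exact 95% counting intervals as lines, the solid line at 1 and the dashed line at the median of all sites. The ratio is below 1 at 27 genes, with the interval below 1 at Hk2, Gpi1 and Cpt1a and above 1 at none. Over all overlapping sites it is below 1 at 44 of 56 member sites, or 78.6%, beside 76.7% of all 8605 sites.

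Some broad control peaks met several RA peaks. Of the 56 overlapped control peaks, 12 met 2 or more RA peaks, or 21.4% (12.7 to 33.8), beside 7.11% of all, and 9 of the 12 were promoters. The median control length of these 56 sites was 1065 bp against 843 bp over all, and the summed RA length was 635.5 bp against 504 bp. How far the larger share comes from the longer peaks or from the smaller depth with RA was not tested.

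RARα peaks named Hk2, Pfkfb3, Eno1, Myc and Hif1a in control, and Deptor with RA, and none of the 6 control peaks had a RARα RA peak within 5 kb, where 10.2% of all did. The strongest was in an intron of Hk2, chr6:82753041-82753449, with 30 fragments and a fold of 5.20, rank 98 of 1172, in a MIRb repeat. The nearest BATF control peak was 19119 bp away. With RA a BATF peak was called on it, chr6:82753170-82753441, with 24 fragments and a fold of 4.70. In the deeper BATF control pool the same density would give 33.8 fragments, where 20 were needed for a call. A RARα control peak with no RARα RA peak and no BATF control peak but a BATF RA peak within 5 kb was found in 17 of 1172 cases, or 1.45%. The pattern was defined from the Hk2 site itself, so this share does not measure how unusual the site is.

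The Pfkfb3 peak, chr2:11619770-11620288, had 19 fragments and a fold of 4.51, lay 65699 bp from the gene and overlapped a BATF control peak beside the strong site described above. The Eno1 peak, chr4:150269209-150269536, had 14 fragments and a fold of 3.02, lay 20330 bp from the gene with Rere as the nearest gene, and 29016 bp from the nearest BATF control peak. The only RARα peak at a promoter of the set was at Myc, chr15:61987742-61988051, with 14 fragments and a fold of 2.52, inside the BATF control peak. At Hif1a, chr12:73842171-73842424 and chr12:73888134-73888502 had 21 and 17 fragments and folds of 2.46 and 2.26, on the pair of distal BATF sites, where the local IgG level was 2.76 and 2.41 times the background. By fold enrichment the Myc and Hif1a peaks ranked 1076 of 1172 or lower, while their 14 to 21 fragments lay above the median of the list, 13.

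In control, 4 of the 6 RARα peaks had a BATF control peak within 5 kb, and all 4 overlapped it, beside 61.9% of all RARα control peaks within 5 kb and 53.4% overlapping. With RA, 5 of the 6 had a BATF peak within 5 kb (all peaks 54.3%) and 3 overlapped it (42.5%). The Deptor peak with RA, chr15:55160622-55160966, had 20 fragments and a fold of 5.31, rank 25 of 597. It lay in an intron, in a LINE repeat, and no BATF peak was nearer than 69536 bp, where 16.4% of all RARα RA peaks had a BATF RA peak within 5 kb.

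A further list of 83 metabolism genes outside the set was counted in the same way. BATF peaks named 72 of them in control and 53 with RA (48.6% and 38.2% of all genes), at promoters 68 and 46 (37.9% and 27.7% of all genes). By group these were 14 and 8 of 17 glucose genes, 10 and 10 of 11 amino acid genes, 10 and 3 of 12 mitochondrial genes, 12 and 9 of 14 lipid genes and 19 and 15 of 20 mTOR genes, with 7 and 8 of 9 genes of transcription factors and oxygen sensing. RARα peaks named 5 in control and 2 with RA, near the 7.18% and 3.19% of all genes. The strongest named Max, the partner of Myc, an intergenic peak at chr12:77056927-77057279 with 36 fragments and a fold of 6.20. The other control genes included Ddit4, a stress-induced inhibitor of mTOR, with a promoter peak at chr10:59953830-59954149 (11 fragments, fold 3.02), and Abcg1, a cholesterol exporter, with an intron peak on a BATF peak (13 fragments, fold 2.82).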

How the data were processed

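Chromatin was fixed with formaldehyde and cut enzymatically. The authors aligned paired-end reads with Bowtie2 to mm10, called peaks with MACS 2.2.7.1 on 2 pooled files per list against IgG, and annotated them with HOMER listed among their tools. The deposited columns used were the summit pileup (signal, in fragments), the fold enrichment (a ratio to the local IgG level, with 1 added to each) and the −log10 p. The deposited −log10 q values were used only as an alternative, since the file headers say q was not calculated. BATF control pileups were in steps of 0.988 per fragment, which was undone. The local IgG level was worked back from pileup and fold, and the deposited p recomputed from it within 5% for at least 99.8% of peaks.

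Members were matched by the deposited gene names (at least 99.5% of names were in the gene table) and placed by RefSeq gene extents of the mm10 build, without strand. Peaks were paired when they overlapped or lay within 5 kb. Shares carry Wilson 95% intervals, and ratios of depth-scaled fragments carry exact binomial ones. PCR fragments are not independent molecules, so these cover counting error only. Python 3.11.15, pandas 2.3.3, numpy 2.4.6 and scipy 1.17.1 were used. Tested on simulated data, pairing recovered 300 of 300 planted distances, and 96.3% of 2000 ratio intervals covered the true ratio of the simulated BATF comparison. The simulated counts were drawn at fixed sites. They did not include the choice of summits, of sites called in both lists or of the RA peak with most fragments.

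The members and lists were chosen with earlier results of these data known. Values in full were given for each RARα peak, for the strongest BATF control peak of the genes with most peaks or highest folds, and for genes with peaks in 1 BATF list only, with more RA peaks, or with opposite changes of RARα and BATF. Promoter sequences and motifs were not analysed here. Alternatives were thresholds on p, q and fold, the distance to the gene, peaks naming 1 gene, merged peaks, overlap and depth.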

Additional observations from a re-analysis of the deposited data

Results flagged for a closer look

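At 2 genes the BATF and RARα lists moved in opposite directions with RA. Hk2 had 2 more BATF peaks with RA than in control, where its RARα peak was present in control only. Eno1 had 1 more BATF peak with RA, and its RARα peak was likewise present in control only. At Hk2 1 of the added peaks lay on the RARα control peak in the intron, whereas at Eno1 the added peak came from a promoter peak that was called as 2 with RA, 29569 bp from the RARα peak. The difference between the antibodies was not tested, since there is 1 list per antibody and condition.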

How the results depend on the processing

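No paired analysis was possible because each condition has 1 list called on pooled files. Of 116 values recomputed for 17 results under 13 settings, 94 stayed within the allowed range and 22 moved. The range was a set factor for counts and the Wilson interval of the main value for shares. Only the share of BATF pairs with lower fold with RA has a direction, and it did not reverse. The q threshold removed no BATF member peak, and shares of the few RARα peaks have wide intervals. Such values had little room to move. The member genes and peaks of the RARα control list dropped to 2 and 2 at p of at most 1e-05 and at q of at most 0.05, which left Hk2 and Pfkfb3. They also dropped to 2 and 2 within 10 kb of the gene and among peaks that name 1 gene, which left Hk2 and Myc. They dropped to 1 and 1, the Hk2 peak, at a fold of at least 5, where 0% had a BATF control peak near. At a fold of at least 5 there were 60 BATF control and 39 BATF RA member peaks, and 87.2% of the latter had a control peak near. At a BATF p of at most 1e-10, 44 BATF RA peaks were left and 60.6% of control peaks had an RA peak near, and with overlap of 1 bp in place of 5 kb 58.3% did. Within 10 kb of the gene 64.8% of BATF control peaks were promoters. Among peaks naming 1 gene there were 58 BATF control and 43 BATF RA peaks, with 70.7% and 74.4% at promoters. The cause was not tested. Counting the BATF control peaks and genes after scaling to the RA depth (91 peaks, 36 genes) and taking the overlapping RA peak with most fragments (75% of sites lower with RA) were chosen after seeing the data. The planned motif search was not run. Few fragments per summit limit any single site, and 1 list per condition leaves the spread between cultures unknown.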
